A study of Mus musculus with 12 samples.

Results

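Transcripts of MHC class I antigen presentation genes were followed across 12 whole mouse embryos, 1 array per embryo. The 10 genes were taken by symbol: the class I heavy chains H2-K1 and H2-D1, their partner B2m, the peptide transporter and loading genes Tap1, Tap2 and Tapbp, the immunoproteasome subunits Psmb8, Psmb9 and Psmb10, and the class I transactivator Nlrc5. They are 10 of the 18193 genes that a probe set with a single gene symbol represents. The embryos were collected at E10.5 and fall into 4 genotypes of 3: double, homozygous for the acd allele of Acd and lacking p53 (Acdacd/acd, p53-/-); acd, homozygous for that allele with p53 present (Acdacd/acd); p53, lacking p53 (p53-/-); and wt. No treatment was given to any group, and the labels call the 3 embryos of a genotype biological replicates. The labels describe neither allele, and the sources used here give no litter or strain. TPP1, the product of Acd, belongs to shelterin, which caps telomeres, and p53 responds to DNA damage with cell cycle arrest or cell death. The study set out to separate responses to acd that need p53 from those that do not.

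Class I molecules show peptides from inside the cell at its surface. Proteins are cut by the proteasome, the peptides are pumped into the endoplasmic reticulum by the Tap1 and Tap2 transporter, tapasin (Tapbp) holds empty class I molecules at that transporter, and a heavy chain with B2m carries the peptide to the surface. Interferons raise transcription of most of these genes and exchange constitutive proteasome subunits for their immunoproteasome forms, while the tissues of the early embryo are known for low class I levels.

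Class I transcripts stood above wt in some double mutant embryos and not in others. Of the 9 members that passed a filter on low values, every member was highest in double mutant replicate 1, and 8 were second highest in double mutant replicate 2. In double mutant replicate 3 no member lay above the other genotypes. In acd and p53 embryos the means of the same genes lay between -0.11 and 0.10 of wt on the log2 scale. The filter asked for 3 or more arrays in which the probe set exceeded the array's 40th percentile, and Nlrc5 did not pass it.

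A few facts about the arrays bear on every value. Values are RMA log2 values, so a difference of 1 is a doubling, and no call of signal over background was used. Array medians lay between 5.32 and 5.40. Double mutant replicates 1 and 2 stood apart from the other arrays, since over 13500 genes their median correlations with the other arrays were 0.972 and 0.987, whereas those of the other 10 arrays were 0.995 or more. Acd measured 8.36 ± 0.11 in double mutants, 8.26 ± 0.05 in acd, 8.91 ± 0.12 in p53 and 8.99 ± 0.01 in wt embryos (SD, n = 3 each) and was lower in both genotypes labelled as homozygous for acd. Transcripts of Y-linked genes were present in double mutant replicate 1, all acd embryos, all p53 embryos and wt replicate 1, so sex differs between the genotypes. All 15 marker genes of heart, neural tissue, blood, liver and limb passed the low-value filter, and some of them varied in the same embryos as the class I genes. Ttr, a carrier protein of liver and yolk sac, measured 11.80, 10.997 and 9.27 in double mutants, 9.63, 9.43 and 9.56 in acd, 9.11, 10.99 and 8.59 in p53, and 9.22, 8.85 and 9.01 in wt embryos. Afp, alpha-fetoprotein, stood 1.31, 1.40 and 0.33 above the wt mean in double mutant replicates 1, 2 and 3. It measured 11.65 to 12.72 in double mutants, 11.60 to 11.79 in acd, 11.08 to 12.60 in p53 and 11.23 to 11.44 in wt embryos. The highest p53 value thus came near those of double mutant replicates 1 and 2, and replicate 3 lay within the acd range. Myh6, a heart myosin, stood at -1.38, -0.19 and -0.21 from the wt mean in double mutant replicates 1, 2 and 3. Against wt, 2 of the 15 (Afp and Ttr) were higher and 1 (Myh6) lower in double mutants at an unadjusted p under 0.05, with a median of -0.04. Of all genes tested, 4.69% were higher at that p, and the share that was lower is not given here. None of the 15 passed limma's adjusted p of 0.05. The part of tissue make-up in the class I values was not tested. In bulk RNA of whole embryos, a change in the number of cells of a type and a change in RNA per cell cannot be told apart.

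The promoters of members that were high in the same embryos are shown first, with the motifs of factors known to act on this pathway. RefSeq sequence of assembly GRCm38.p6 was available for 8 of the 10 members, and positions are counted from the RefSeq start of each gene in the promoter table. That table gives 2 starts for H2-K1, of which the one farther upstream was used, and the RefSeq interval of the gene reaches beyond it, so the printed stretch lies inside that interval. Capitals mark matches to GAAANNGAAA (the interferon-stimulated response element), AANNGAAA (the core bound by interferon regulatory factors), TTCNNNGAA (the site of activated STAT dimers), GGGNNTTNCC (the kappa B site) and TGACG (the core of the cyclic AMP response element), each searched on both strands of the 250 bases before the start.
H2-K1: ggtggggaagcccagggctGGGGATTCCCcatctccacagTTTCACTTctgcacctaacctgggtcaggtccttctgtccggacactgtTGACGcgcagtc
H2-D1: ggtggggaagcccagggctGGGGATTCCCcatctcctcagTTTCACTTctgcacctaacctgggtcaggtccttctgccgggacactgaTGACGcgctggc
B2m: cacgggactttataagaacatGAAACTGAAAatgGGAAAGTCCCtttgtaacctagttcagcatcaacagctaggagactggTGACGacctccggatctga
Psmb8: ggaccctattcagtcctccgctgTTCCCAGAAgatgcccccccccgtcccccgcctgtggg
Tap1: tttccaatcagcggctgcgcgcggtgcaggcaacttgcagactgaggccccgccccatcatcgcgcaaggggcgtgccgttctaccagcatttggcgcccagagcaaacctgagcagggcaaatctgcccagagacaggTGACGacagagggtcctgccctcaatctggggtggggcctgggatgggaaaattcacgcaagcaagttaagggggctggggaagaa

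The H2-K1 stretch is chr17:34000377-34000477 on the minus strand, and the H2-D1 stretch is chr17:35262904-35263004 on the plus strand. These stretches share 95 of 101 bases, and over the 190 upstream bases that can be set side by side without gaps the promoters share 166. The B2m stretch is chr2:122147527-122147627 and the Psmb8 stretch chr17:34198075-34198135, both on the plus strand. The Tap1 stretch, chr17:34187331-34187555 on the plus strand, is the whole interval of 225 bases between Psmb9 and Tap1, which are transcribed away from each other.

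H2-K1 and H2-D1 carried, in this order, a kappa B match, an interferon regulatory factor core and a TGACG core, and B2m carried the same 3 with the kappa B match after the core. The interferon regulatory factor core was found in 3 of 8 members (H2-K1, H2-D1 and B2m) and in 21.3% of 32851 windows of all genes. The longer response element was found in B2m alone among the members, overlapping the core there, and in 2.98% of windows. The kappa B match was found in the same 3 members and in 4.11% of windows. TGACG was found in 5 members (H2-K1, H2-D1, B2m, Tap1 and Psmb9) and in 17.8% of windows. The Tap1 and Psmb9 matches are the same bases, in the interval between these genes. The STAT match was found in Psmb8 and in 7.02% of windows. CCAAT, the site of the NF-Y factor, was found in 6 members and in 33.8% of windows, and its match in Tap1 is again the same bases as in Psmb9. Tapbp held CCAAT alone among these motifs and Psmb10 held none. These are letters in a window of fixed length, not measured binding.

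The class I chains were considered first. H2-K1 and H2-D1 encode the heavy chains that hold the peptide, and B2m encodes the small chain that both need to reach the surface. H2-K1 (chromosome 17, 33996012 to 34000619) measured 10.47, 9.56 and 8.79 in double mutant replicates 1, 2 and 3, 9.04, 8.78 and 8.84 in acd, 8.66, 8.54 and 8.89 in p53, and 8.68, 8.84 and 8.83 in wt embryos. Double mutant replicates 1 and 2 were above all 9 arrays of the other genotypes, at 3.22-fold and 1.71-fold of the wt mean, while replicate 3 lay among them. H2-D1 (chromosome 17, 35263094 to 35267497) measured 10.63, 9.61 and 8.80 in double mutants, 9.08, 8.88 and 8.76 in acd, 8.88, 8.61 and 8.86 in p53, and 8.86, 8.88 and 8.84 in wt embryos. Its double mutant arrays had the same order, at 3.40-fold, 1.68-fold and 0.958-fold of wt. B2m (chromosome 2, 122147687 to 122153082), on another chromosome than the heavy chains, measured 11.93, 11.34 and 10.43 in double mutants, 10.48, 10.46 and 10.55 in acd, 10.25, 10.505 and 10.37 in p53, and 10.39, 10.41 and 10.41 in wt embryos. It was at 2.88-fold and 1.92-fold of wt in replicates 1 and 2 of the double mutants, and its 3 double mutant arrays were all above its 3 wt arrays, replicate 3 by the least.

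**Figure D1:**
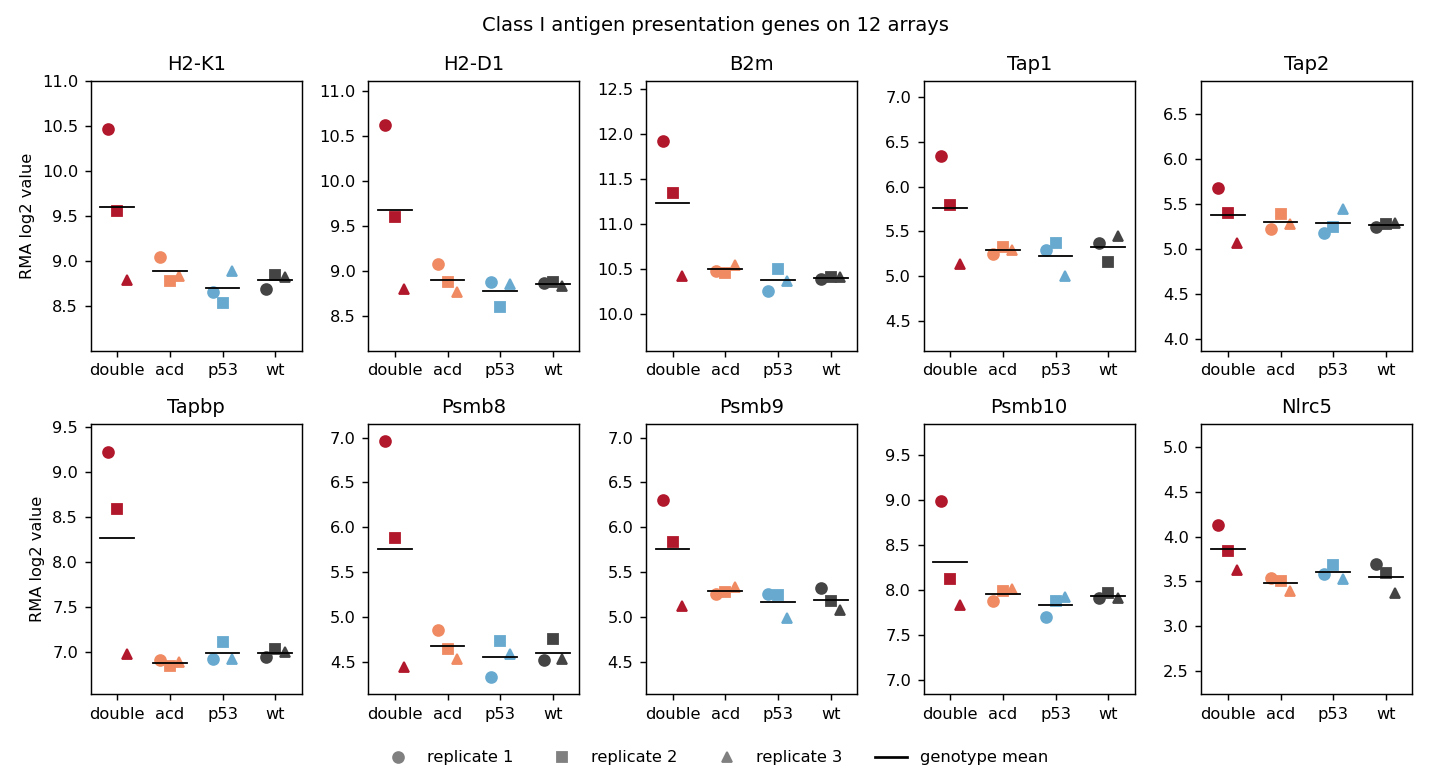
Each panel shows the RMA log2 value of 1 member (y axis, the same span of log2 units in every panel) in the 12 embryos by genotype, with a marker per replicate and a bar at the genotype mean. In 9 of the 10 panels double mutant replicate 1 and replicate 2 stand above the other genotypes; in Tap2 replicate 2 does not, and replicate 3 stands among or below them in all 10.

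The genes that deliver peptide were considered next. Tapbp, or tapasin, which loads class I molecules and edits their peptides (chromosome 17, 33919478 to 33929290), measured 9.22, 8.59 and 6.98 in double mutants, 6.91, 6.84 and 6.88 in acd, 6.92, 7.11 and 6.92 in p53, and 6.94, 7.04 and 6.996 in wt embryos. It was at 4.70-fold and 3.02-fold of wt in replicates 1 and 2 of the double mutants and at 0.992-fold in replicate 3. Tap1, a subunit of the transporter that moves peptides into the endoplasmic reticulum (chromosome 17, 34187556 to 34197225), measured 6.34, 5.79 and 5.14 in double mutants, 5.25, 5.32 and 5.299 in acd, 5.29, 5.38 and 5.00 in p53, and 5.37, 5.16 and 5.45 in wt embryos. Tap2, its partner subunit (chromosome 17, 34204479 to 34216321), measured 5.67, 5.40 and 5.06 in double mutants, 5.23, 5.39 and 5.28 in acd, 5.18, 5.25 and 5.45 in p53, and 5.24, 5.28 and 5.29 in wt embryos. Tap2 was the member with the smallest difference: replicate 1 alone stood above the other genotypes, and replicate 3 was the lowest of the 12 arrays. The values of Tap1 and Tap2 lie around the array medians, where background can compress differences.

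The immunoproteasome subunits replace constitutive catalytic subunits and change which peptides are cut. Psmb8, or LMP7 (chromosome 17, 34198195 to 34201454), measured 6.96, 5.89 and 4.44 in double mutants, 4.86, 4.65 and 4.53 in acd, 4.33, 4.74 and 4.59 in p53, and 4.52, 4.76 and 4.54 in wt embryos. It was at 5.12-fold and 2.43-fold of wt in replicates 1 and 2 of the double mutants, and in the other 10 arrays it lay around the 40th percentile of its array (4.62 to 4.72), so these folds may understate the change. Psmb9, or LMP2 (chromosome 17, 34182030 to 34187330), measured 6.30, 5.83 and 5.13 in double mutants, 5.26, 5.28 and 5.34 in acd, 5.26, 5.25 and 4.99 in p53, and 5.32, 5.18 and 5.08 in wt embryos. Outside double mutant replicates 1 and 2, Psmb9 lay around or below the array medians, where background can compress differences. Psmb10, or MECL-1 (chromosome 8, 105935728 to 105938392), measured 8.99, 8.12 and 7.84 in double mutants, 7.88, 7.99 and 8.01 in acd, 7.70, 7.88 and 7.93 in p53, and 7.91, 7.97 and 7.91 in wt embryos. Psmb10 was at 2.08-fold of wt in double mutant replicate 1 and at 1.14-fold in replicate 2, so its difference in replicate 2 was the smallest share of that in replicate 1 among the 9 members. Psmb9, Tap1, Psmb8 and Tap2 lie side by side on chromosome 17 within 34292 bases, and Psmb10 lies on another chromosome.

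Nlrc5, the transactivator of class I genes (chromosome 8, 94434335 to 94527272), measured 4.13, 3.84 and 3.62 in double mutants, 3.54, 3.50 and 3.40 in acd, 3.59, 3.68 and 3.53 in p53, and 3.69, 3.59 and 3.37 in wt embryos. All 12 values lay below the 40th percentile of their arrays, so Nlrc5 was not tested and no fold is given for it. Replicates 1 and 2 of the double mutants held its 2 highest values.

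The sizes of the differences were set side by side within each double mutant embryo. The difference from wt in replicate 2, divided by that in replicate 1 on the log2 scale, was 0.715 for Tapbp, 0.616 for B2m, 0.576 for Psmb9, 0.543 for Psmb8, 0.460 for Tap1, 0.457 for H2-K1, 0.423 for H2-D1, 0.323 for Tap2 and 0.183 for Psmb10. Each member was thus closer to wt in replicate 2 than in replicate 1, by an amount that differed between members. Of the 9 members, 8 were in the order replicate 1, replicate 2, then the other 10 arrays, an order that 8.13% of all genes tested had. Replicate 1 was above every array of the other genotypes for 9 of 9 members and for 36.4% of genes, and replicate 2 for 8 of 9 members and 22.7% of genes. Both were above the other 10 arrays for 8 of 9 members and 11.5% of genes. Replicate 3 was above the other genotypes for 0 of 9 members and 8.77% of genes. A difference of at least 1 from the wt mean was reached by 8 of 9 members in replicate 1, against 2.15% of genes, and by 2 of 9 members (Tapbp and Psmb8) in replicate 2, against 1.05% of genes. The members share the arrays and a known regulation, so these counts describe 2 embryos and are not a test.

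**Figure D2:**
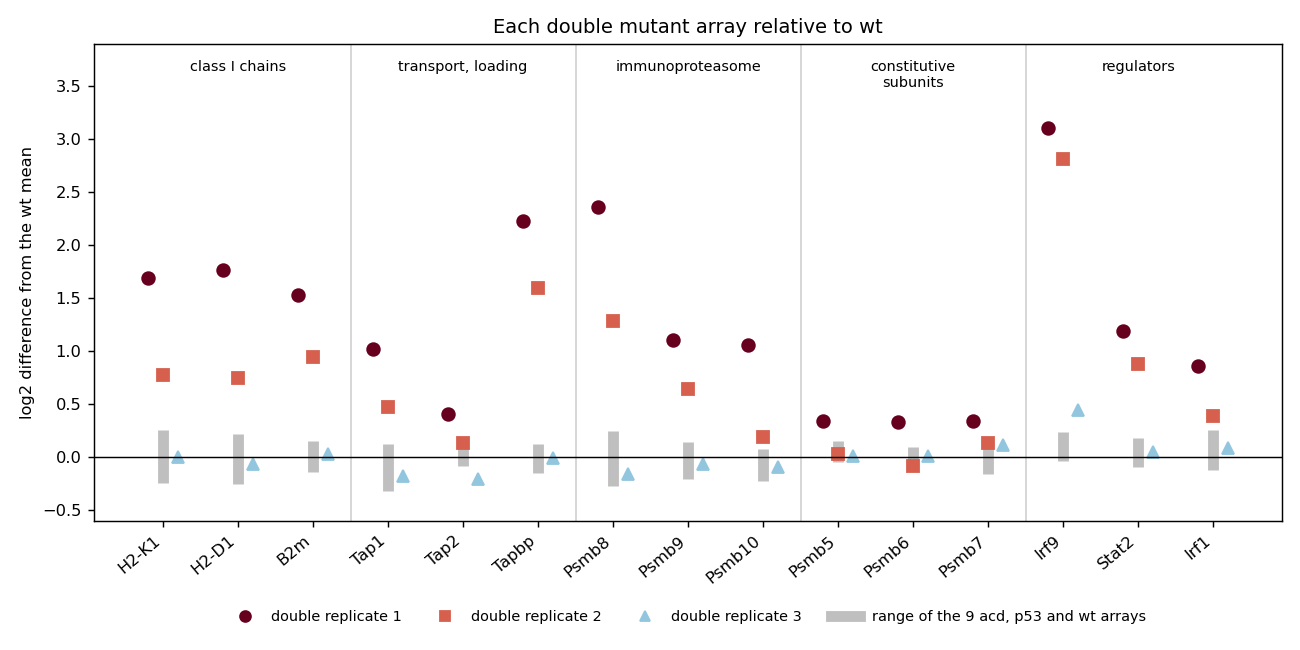
Points give the log2 difference from the wt mean (y axis) of each double mutant embryo for the 9 tested members, the constitutive proteasome subunits and the regulators Irf9, Stat2 and Irf1 (x axis), and grey bars give the range of the 9 acd, p53 and wt arrays. Replicates 1 and 2 stand above the grey bars for 8 of 9 members and for the 3 regulators, while replicate 3 stays within or below the bars of the members and above that of Irf9.

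Set against p53 embryos, the comparison that asks what acd does where p53 is absent, double mutants averaged higher for 9 of 9 members, as for 48% of all genes, and none passed limma's test at an adjusted p of 0.05 over 13500 genes, a test that 0.00741% of genes passed. The log2 difference was 0.91 ± 0.30 for H2-K1, 0.90 ± 0.32 for H2-D1, 0.86 ± 0.27 for B2m, 1.28 ± 0.40 for Tapbp, 1.21 ± 0.44 for Psmb8, 0.59 ± 0.22 for Psmb9, 0.54 ± 0.23 for Tap1 and 0.48 ± 0.22 for Psmb10 (SE, limma, n = 3 embryos each, adjusted p = 0.463 for each of the 8). Tap2 measured 0.09 ± 0.13 (limma, adjusted p = 0.769). The intervals are wide because the 3 double mutant embryos disagree: the SD of Tapbp was 1.16 in double mutants, 0.03 in acd, 0.11 in p53 and 0.05 in wt embryos. The fit shares 1 spread among the genotypes, so it understates the spread of the double mutants and overstates that of the others. The SEs, intervals and p-values of every comparison that holds double mutants rest on that shared spread. At an unadjusted p under 0.05, 8 of 9 members were higher, against 5.07% of all genes tested. The median difference was 0.86 over the members and -0.01 over all genes. No member had its 3 double mutant arrays all above its 3 p53 arrays, against 3.28% of genes.

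Set against acd embryos, the comparison that asks what loss of p53 adds to acd, the members measured 1.39 ± 0.40 (Tapbp), 1.09 ± 0.44 (Psmb8), 0.77 ± 0.32 (H2-D1), 0.74 ± 0.27 (B2m), 0.72 ± 0.30 (H2-K1), 0.47 ± 0.23 (Tap1), 0.46 ± 0.22 (Psmb9), 0.36 ± 0.22 (Psmb10) and 0.08 ± 0.13 (Tap2). None of the 9 passed limma's adjusted p of 0.05, which 0% of genes passed, and the adjusted p ran from 0.371 to 0.793. At an unadjusted p under 0.05, 5 of 9 members were higher, against 6.31% of genes. Tapbp was the 1 member with all double mutant arrays above all acd arrays, a separation that 4.4% of genes had.

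Set against wt embryos, double mutants measured 1.27 ± 0.40 for Tapbp, 1.16 ± 0.44 for Psmb8, 0.83 ± 0.27 for B2m, 0.82 ± 0.30 for H2-K1, 0.82 ± 0.32 for H2-D1, 0.56 ± 0.22 for Psmb9, 0.43 ± 0.23 for Tap1, 0.38 ± 0.22 for Psmb10 and 0.11 ± 0.13 for Tap2. None of the 9 passed limma's adjusted p of 0.05 (lowest adjusted p = 0.447), which 0.0148% of genes passed. At an unadjusted p under 0.05, 6 of 9 members were higher, against 4.69% of genes. B2m was the 1 member with all double mutant arrays above all wt arrays, as 4.96% of genes were. These 3 comparisons share the double mutant arrays, so they are not separate evidence.

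In embryos with p53, the acd means of the members lay near the wt means in the fit without a term for sex. The log2 difference between acd and wt ran from -0.11 (Tapbp) to 0.10 (H2-K1) over the 9 members, and none passed limma's adjusted p of 0.05, which 0.0148% of genes passed (adjusted p = 1 for each). None had an unadjusted p under 0.05, against 1.77% of genes. For H2-K1 the interval of the acd minus wt difference was -0.56 to 0.76 and for B2m -0.49 to 0.68, so small changes cannot be seen in this fit. The acd arrays themselves were tight: B2m averaged 10.496 ± 0.046 in acd and 10.40 ± 0.01 in wt embryos, with the 3 acd arrays above the 3 wt arrays, and Tapbp averaged 6.88 ± 0.03 in acd and 6.99 ± 0.05 in wt embryos, with the 3 acd arrays below (SD, n = 3 each). Separation upward was found in 1 of 9 members and 7.24% of genes, and downward in 1 of 9 members and 9.85% of genes. All acd embryos and 1 of 3 wt embryos had Y-linked transcripts, and with sex as a term the difference ran from -0.57 (Tapbp) to -0.11 (Tap2), with -0.48 for Psmb8, -0.43 for H2-D1 and -0.35 for Tap1. None of these had an unadjusted p under 0.05, against 2.65% of genes that were lower at that p (limma, lowest adjusted p = 0.836).

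The p53 means also lay near the wt means in the fit without a term for sex. The p53 minus wt difference ran from -0.10 (Tap1) to 0.02 (Tap2), and 1 of 9 members was above 0, against 48.1% of genes. None passed limma's adjusted p of 0.05, which 0% of genes passed (adjusted p = 1 for each), and none had an unadjusted p under 0.05, against 0.719% of genes. All p53 embryos had Y-linked transcripts, and with sex as a term the difference ran from -0.61 (Psmb8) to -0.11 (Tap2), with -0.56 for H2-D1, -0.47 for H2-K1, -0.46 for Tapbp and -0.37 for B2m. None of these had an unadjusted p under 0.05, against 1.94% of genes that were lower at that p (limma, lowest adjusted p = 0.786). The sex term is estimated from double mutant and wt embryos, the genotypes that hold both sexes, and double mutant replicate 1 is the only double mutant with Y-linked transcripts.

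The interaction, which subtracts the difference between acd and wt from that between double and p53, asks whether the acd difference depends on p53. It measured 1.39 ± 0.56 for Tapbp, 1.14 ± 0.63 for Psmb8, 0.85 ± 0.46 for H2-D1, 0.81 ± 0.43 for H2-K1, 0.76 ± 0.38 for B2m, 0.57 ± 0.32 for Tap1, 0.49 ± 0.31 for Psmb9, 0.45 ± 0.31 for Psmb10 and 0.06 ± 0.19 for Tap2. None of the 9 passed limma's adjusted p of 0.05, which 0% of genes passed (lowest adjusted p = 0.879). At an unadjusted p under 0.05, 1 member (Tapbp) was higher, against 2.45% of genes. With sex as a term the interaction ran from 0.32 (Tap2) to 2.30 (Tapbp), with 2.25 for Psmb8, 1.80 for H2-D1, 1.58 for H2-K1 and 1.44 for B2m. At an unadjusted p under 0.05, 8 of 9 members were then higher, against 11.8% of genes, and none passed the adjusted p (limma, lowest adjusted p = 0.174). That fit assumes the same sex difference in every genotype, which was not tested. Over the members, double mutant replicate 1 lay 1.46 from the wt mean and wt replicate 1 lay -0.01 from it, and both had Y-linked transcripts.

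**Figure D3:**
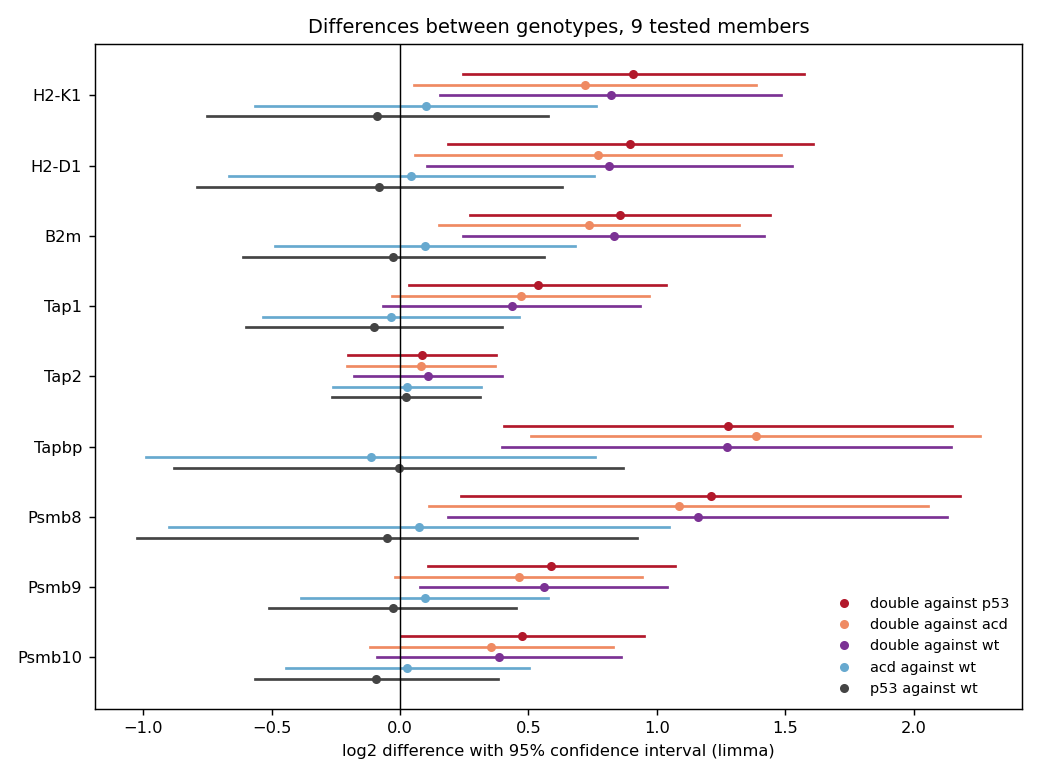
Points give the limma log2 difference of each of the 9 tested members (rows) in 5 comparisons, and lines give its 95% confidence interval (x axis, log2 units). Points of the 3 comparisons that hold double mutants lie to the right of 0, and those of acd against wt and p53 against wt lie near 0. The 5 intervals of a gene are equally wide, since the genotypes share an estimate of the spread. Those of Tap2 cross 0 in all 5 comparisons.

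These calls rest on single embryos. Class I values of double mutant replicate 3 lay near the other genotypes, so leaving that embryo out favours calls. Adjusted p-values of the fit without it describe replicates 1 and 2 and are not a test of the genotype. Without replicate 3, 8 of 9 members passed limma's adjusted p in double against p53, as did 13% of all genes. Tapbp then measured 1.92 ± 0.15 (adjusted p = 2.3e-05), Psmb8 1.87 ± 0.25 (adjusted p = 0.00156), H2-D1 1.34 ± 0.23 (adjusted p = 0.00515), H2-K1 1.32 ± 0.21 (adjusted p = 0.00423) and B2m 1.26 ± 0.14 (adjusted p = 0.000573), all from limma with n = 2 double mutants. Tap2 was the member that did not pass, at 0.24 ± 0.11 (limma, adjusted p = 0.139). The counts were 7 of 9 against acd, with 13.9% of genes, 7 of 9 against wt, with 12.2% of genes, and 7 of 9 for the interaction, with 3.25% of genes; Tap2 and Psmb10 were the members that missed. Without double mutant replicate 1, no member passed, and H2-K1 measured 0.48 and Tapbp 0.80 against p53. Without replicates 1 and 2, the remaining double mutant embryo differed from the p53 mean by -0.01 for Tapbp, -0.11 for Psmb8 and -0.08 for Tap1. Replicate 1 is also the 1 double mutant embryo with Y-linked transcripts, and in a fit with sex as a term the double against p53 difference was 1.73 for Tapbp and 1.29 for H2-K1 (limma, adjusted p = 0.0897 for both). At an unadjusted p under 0.05, 8 of 9 members were higher in that fit, against 13.6% of genes. Replicates 2 and 3 both lacked Y-linked transcripts, and the part of sex in the class I values was not tested further.

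Several members were read by more than 1 probe set, which gives a check that uses other probes. There were 27 single-symbol probe sets, and 18 of them had double mutant replicate 1 above all arrays of the other genotypes, 15 of them replicate 2 as well. These counts include the probe sets already used, which all had replicate 1 on top, so they are not a count of other probes alone. Replicate 1 was on top for 36.4% of all genes tested, and the share over all probe sets was not counted. The second B2m probe set measured 11.97, 11.09 and 10.36 in double mutants, with means of 10.39 in acd, 10.28 in p53 and 10.30 in wt embryos, the same order as the first. All 4 H2-K1 probe sets and 4 of 9 H2-D1 probe sets had replicate 1 on top. The second Tapbp probe set measured 6.45, 5.71 and 5.34 in double mutants, against a wt mean of 5.53, so replicate 2 lay 0.19 above wt there, against 1.60 with the probe set used. The 3 further Tap1 probe sets and the second Psmb8 probe set had genotype means between 3.01 and 4.47 and did not separate. Of the 27 probe sets, 13 carry the suffix that marks probes shared with other transcripts, 11 of them for H2-K1 or H2-D1, so signal of the heavy chains and their relatives cannot be told apart. A further 3 probe sets list several symbols and were not used.

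**Figure D4:**
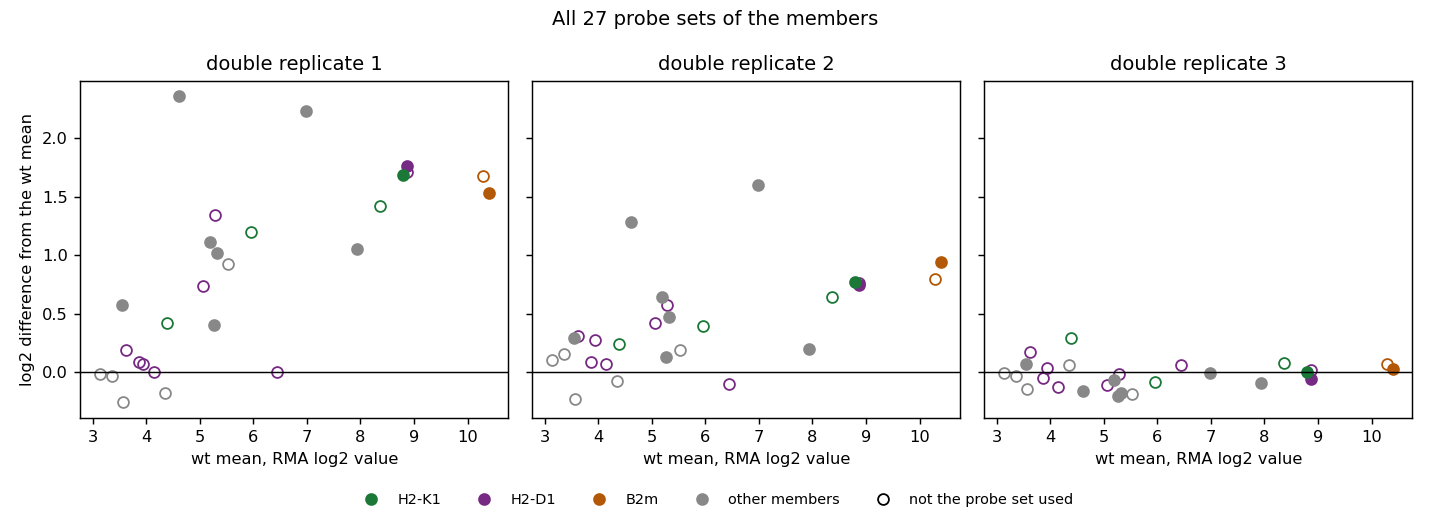
Each point is 1 of the 27 probe sets of the members, at its wt mean (x axis, RMA log2 value) and its log2 difference from that mean in double mutant replicates 1, 2 and 3 (panels, y axis); filled points are the probe sets used. Differences run from -0.26 to 2.36 in replicate 1 and from -0.21 to 0.29 in replicate 3.

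Other genes of the pathway were described from lists. Of the 13 other class I chains listed, 4 had a probe set and 1 was tested. H2-M3, a nonclassical chain that presents formylated peptides, measured 6.42, 5.92 and 5.85 in double mutants, 5.86, 5.87 and 5.75 in acd, 5.76, 5.67 and 5.63 in p53, and 5.72, 5.69 and 5.64 in wt embryos. Its double mutant arrays all lay above its p53 and wt arrays (double minus p53 0.37 ± 0.13, limma, adjusted p = 0.463). H2-T24, a nonclassical chain, did not pass the low-value filter and measured 5.95, 5.60 and 4.60 in double mutants, against 4.34 to 4.56 in acd, 4.55 to 4.66 in p53 and 4.43 to 4.51 in wt embryos. The other listed chains with a probe set did not pass the filter either: H2-Q10 measured 5.29, 4.36 and 4.13 in double mutants, against 4.21 to 4.42 in wt embryos, and H2-Q2 measured 3.02, 3.15 and 3.42 in double mutants, against 3.003 to 3.42 in p53 and 3.42 to 3.60 in wt embryos. H2-Q10 was thus high in replicate 1 alone, and H2-Q2 lay within the p53 range in all 3 double mutants. The list of class I-like chains gave 6 tested genes, with a median double minus p53 difference of 0.33; Fcgrt, the neonatal Fc receptor, measured 0.41 ± 0.19 and Hfe, the hemochromatosis protein, 0.54 ± 0.28 (limma, adjusted p = 0.463 and 0.470).

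Of 8 tested genes for peptide trimming, loading and proteasome activation, 5 were higher and 3 lower in double mutants than in p53 embryos, with a median of 0.09. At an unadjusted p under 0.05, 1 was higher, against 5.07% of all genes (Calr, the chaperone calreticulin, 0.23 ± 0.10, limma, adjusted p = 0.463). Psme1, a subunit of the interferon-induced proteasome activator, measured 11.26, 10.64 and 10.15 in double mutants, 10.35, 10.19 and 10.21 in acd, 10.25, 10.41 and 10.35 in p53, and 10.39, 10.34 and 10.36 in wt embryos, so replicates 1 and 2 were on top and replicate 3 was lowest. The constitutive subunits that the immunoproteasome forms replace measured 0.22 ± 0.09 (Psmb7), 0.04 ± 0.09 (Psmb5) and 0.04 ± 0.10 (Psmb6) against p53. Their list mean lay 0.34 above wt in double mutant replicate 1, 0.03 in replicate 2 and 0.04 in replicate 3, against 1.51, 0.70 and -0.11 for the immunoproteasome subunits. The 11 other subunits of the proteasome core had a median double minus p53 difference of 0.02. Their list mean lay 0.28 above wt in double mutant replicate 1, -0.01 in replicate 2 and 0.02 in replicate 3. An unadjusted p under 0.05 was reached by 0 of them, where 5.07% of all genes were higher at that p.

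None of the 4 class II genes tested had an unadjusted p under 0.05 against p53, where 5.07% of all genes were higher at that p. H2-Ab1 measured 0.19 ± 0.15, H2-Eb1 0.17 ± 0.14, H2-DMa 0.13 ± 0.13 and Cd74, the invariant chain, 0.11 ± 0.18 in double against p53 (limma, adjusted p from 0.560 to 0.785). Their list mean lay 0.44 above wt in double mutant replicate 1, -0.08 in replicate 2 and -0.04 in replicate 3. The class II transactivator Ciita and the chain H2-Aa did not pass the low-value filter.

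Among the 10 regulators of class I genes tested, 2 (Irf9 and Stat2) were higher at an unadjusted p under 0.05 in double against p53, against 5.07% of all genes. Irf9, the DNA-binding part of the complex that type I interferon activates, measured 9.52, 9.22 and 6.85 in double mutants, 6.49, 6.54 and 6.57 in acd, 6.46, 6.58 and 6.65 in p53, and 6.36, 6.45 and 6.40 in wt embryos. It was at 8.64-fold and 7.05-fold of wt in replicates 1 and 2 of the double mutants and at 1.36-fold in replicate 3, above the other 9 arrays in all 3 double mutants. Stat2, its partner, measured 5.89, 5.57 and 4.74 in double mutants, 4.81, 4.88 and 4.61 in acd, 4.60, 4.73 and 4.74 in p53, and 4.61, 4.66 and 4.81 in wt embryos. Outside double mutant replicates 1 and 2, Stat2 lay around the 40th percentile of the arrays, where background can compress differences. Irf1, which interferon gamma induces, measured 7.79, 7.32 and 7.02 in double mutants, 7.03, 6.81 and 6.90 in acd, 7.18, 7.02 and 7.03 in p53, and 6.94, 6.93 and 6.91 in wt embryos. The double minus p53 difference was 1.97 ± 0.50 for Irf9, 0.71 ± 0.22 for Stat2 and 0.30 ± 0.15 for Irf1 (limma, adjusted p = 0.463, 0.463 and 0.469). In the ratio of replicate 2 to replicate 1, Irf9 reached 0.906 and Stat2 0.734, above the 9 members, and Irf1 reached 0.453. Of the 10 regulators tested, 3 were higher and 7 lower in double mutants, with a median of -0.04; Rfxap, a subunit of the RFX complex that binds class I promoters, measured -0.11 ± 0.07.

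Markers of other cell types that could carry class I transcripts were read in the same arrays. Of 15 macrophage markers, 14 were tested, all 14 were higher in double mutants than in p53 embryos, as were 48% of all genes, and 8 were higher at an unadjusted p under 0.05, against 5.07% of all genes, among them Mrc1 (0.87 ± 0.20), Mpeg1 (1.19 ± 0.41), C1qc (1.11 ± 0.42) and C1qa (1.22 ± 0.46; limma, adjusted p = 0.463 for each). Relative to wt, the mean of the 14 was 1.39, 0.96 and -0.16 in double mutant replicates 1, 2 and 3, and between -0.21 and 0.12 in acd, -0.17 and 0.16 in p53 and -0.07 and 0.09 in wt embryos. The mean of the 9 class I members was 1.46, 0.75 and -0.08 in double mutant replicates 1, 2 and 3, and between 0.01 and 0.07 in acd, -0.10 and -0.01 in p53 and -0.01 and 0.02 in wt embryos. Both lists were thus high in the same embryos, and the part of macrophages in the class I values was not tested. Of 8 lymphocyte and natural killer cell markers, 2 were tested (Cd3e 0.16 ± 0.12, Cd8a 0.04 ± 0.14) and Cd3g, Klrd1, Ncr1, Prf1 and Cd79a did not pass the low-value filter. Of 7 trophoblast and decidua markers, 4 were on the array and 1, Plac1, was tested (0.16 ± 0.18), while Tpbpa, Prl8a2 and Psg21 did not pass the filter.

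**Figure D5:**
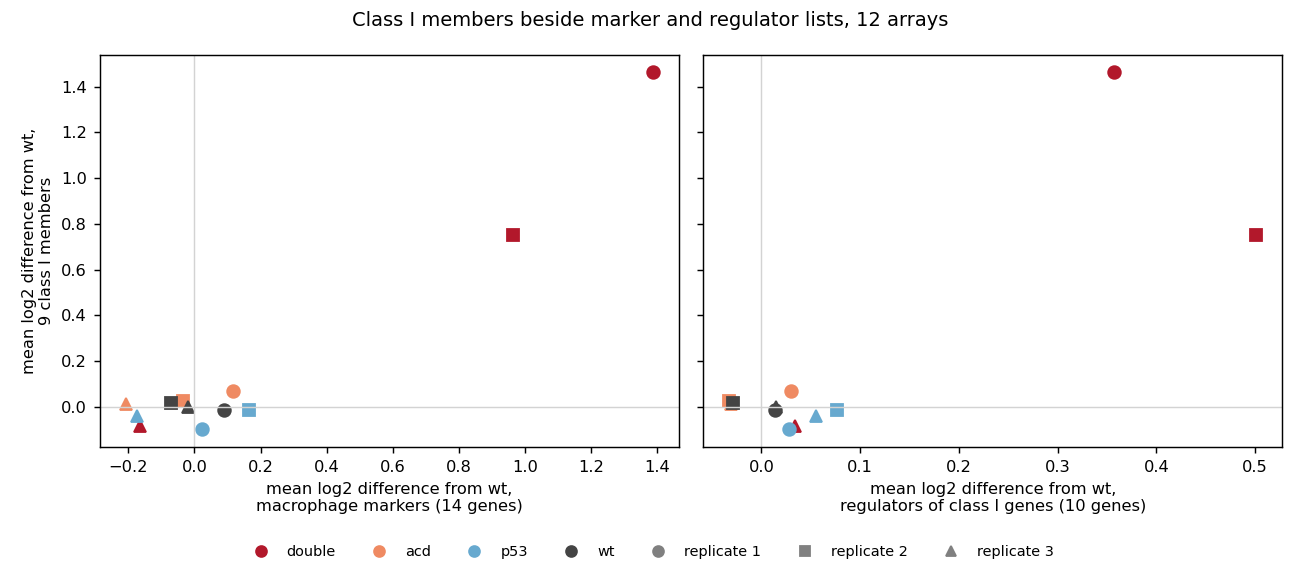
Each point is 1 embryo, with the mean log2 difference from wt of the 9 class I members (y axis) against that of 14 macrophage markers (left) and 10 regulators of class I genes (right). Double mutant replicates 1 and 2 lie up and to the right in both panels, and the other 10 embryos lie together near 0; on the right, 3 of the 10 regulators (Irf9, Stat2 and Irf1) were higher in double mutants than in p53 embryos and the other 7 lower.

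The genes whose pattern was most like that of the members were ranked by Pearson r with the members' mean over the 12 arrays. They were Shisa5 (r = 0.994, 0.837 without double mutant replicates 1 and 2), Ifi27 (0.993, 0.435), Ctsc (0.989, 0.846), Islr (0.989, 0.569), Apod (0.987, 0.672), Oas1b (0.986, 0.275), Ogfr (0.985, 0.602) and Kctd14 (0.984, 0.411). An r above 0.9 was reached by 471 of 13491 genes (3.49%), and the points share the 2 arrays that stand apart, so these values describe those arrays. Shisa5 measured 10.80, 10.22 and 9.35 in double mutants and 9.37 to 9.50 in wt embryos, and Ifi27, an interferon-induced gene, 8.77, 7.32 and 5.44 in double mutants and 5.52 to 5.69 in wt embryos. As with the members, the third double mutant embryo lay near wt for both.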

How the data were processed

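Total RNA of 12 whole embryos was labelled from 250 ng with a 3' kit, per the labels' protocols. The deposited values are log2 values that the authors made with justRMA (background correction, quantile normalization and probe summary), per the series' design text, which also names BRB-ArrayTools 4.4.0 for their gene selection. Quantile normalization hides any change in total RNA. Of 45101 probe sets, 64 were controls and 34945 had 1 gene symbol in the platform annotation, 932 had several and 9211 were not listed. The symbols of 10 of 10 members matched RefSeq by gene ID. Each gene was its highest-mean probe set, and 13500 of 18193 genes passed the filter. Tests used limma 3.58.1 (R 4.3.3) on all 12 arrays, with a mean per genotype, 8 residual degrees of freedom, two-sided p-values and Benjamini-Hochberg adjustment over all genes tested. The test was checked on simulated data, with the spread of acd, p53 and wt embryos and the same change in every double mutant. That check does not cover double mutants that differ among themselves, as they did here. Precision is limited by the number of arrays. All members are named in every comparison; of each other list, up to 4 genes with the smallest p in double against p53 are named, as are the 8 genes most like the members. Genes named as not passing the filter, H2-T24 among them, were named after their values were seen. The members and lists were chosen with earlier results of these data known. Alternatives tried were other filters, probe set rules, normalizations and variance models, array weights, terms for sex and replicate number, only the genotypes compared, and leaving out arrays. The p53 transcript was not analysed here.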

Additional observations from a re-analysis of the deposited data

Results flagged for a closer look

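Nlrc5 was singled out because its 3 acd embryos all lay below the wt mean while its 3 double mutant embryos all lay above the p53 mean. The double minus p53 difference exceeded the acd minus wt difference by 0.34 on the log2 scale. All 12 values lay below the 40th percentile of their arrays, and the difference was not tested.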

How the results depend on the processing

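No member passed in acd against wt or p53 against wt under any of 25 settings run, and a replicate block left 0 members passing in each of the 6 comparisons. Same-numbered embryos of different genotypes deviated together, at r above 0.1, in 7 of 18 pairs, against 9 of 36 differently numbered pairs. The highest r was 0.39 in same-numbered and 0.28 in differently numbered pairs. These pairs share embryos, so the counts cannot settle whether the numbers pair the embryos. With array weights 3, 6 and 6 members passed against p53, acd and wt, as did 0.904%, 13.2% and 13.4% of all genes. Leaving out each array in turn gave 0 to 8 members against p53, 0 to 7 against acd, 0 to 7 against wt and 0 to 7 for the interaction, and only the fits without double mutant replicate 3 were above 0. The other alternatives gave 0. The low-level probe sets and the 3 double mutant embryos limit what can be seen.

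Small differences changed sign, and the cause was not tested. Leaving out each array in turn, acd against wt ranged from -0.040 to 0.12 for H2-D1, -0.12 to 0.027 for Tap1, -0.018 to 0.064 for Tap2 and -0.015 to 0.15 for Psmb8. The p53 against wt difference ranged from -0.13 to 0.0077 for H2-D1, -0.090 to 0.035 for B2m, -0.19 to 0.0082 for Tap1, -0.055 to 0.078 for Tap2, -0.068 to 0.027 for Tapbp, -0.14 to 0.060 for Psmb8 and -0.085 to 0.058 for Psmb9. Tap2 ranged from -0.061 to 0.24 against p53, -0.066 to 0.24 against acd, -0.038 to 0.27 against wt and -0.089 to 0.22 for the interaction. With sex as a term, acd against wt was -0.28 for H2-K1, -0.43 for H2-D1, -0.24 for B2m, -0.11 for Tap2, -0.48 for Psmb8, -0.24 for Psmb9 and -0.30 for Psmb10, and p53 against wt was -0.11 for Tap2. Differences that kept their sign also grew in that fit, to -0.57 for Tapbp in acd against wt, to -0.61 for Psmb8 in p53 against wt and to 2.30 for Tapbp in the interaction. With the mean of all probe sets, Tapbp in acd against wt was 0.0062.

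Without double mutant replicates 1 and 2, which leaves 1 double mutant embryo assumed to vary like the others, these values turned negative. Against p53 they were -0.081 for Tap1, -0.23 for Tap2, -0.0069 for Tapbp, -0.11 for Psmb8, -0.038 for Psmb9 and -0.0025 for Psmb10. Against acd they were -0.10 for H2-K1, -0.11 for H2-D1, -0.070 for B2m, -0.15 for Tap1, -0.23 for Tap2, -0.24 for Psmb8, -0.16 for Psmb9 and -0.12 for Psmb10. Against wt they were -0.062 for H2-D1, -0.18 for Tap1, -0.21 for Tap2, -0.012 for Tapbp, -0.16 for Psmb8, -0.067 for Psmb9 and -0.094 for Psmb10. The interaction was -0.0086 for H2-K1, -0.027 for H2-D1, -0.045 for B2m, -0.046 for Tap1, -0.26 for Tap2, -0.18 for Psmb8, -0.14 for Psmb9 and -0.032 for Psmb10.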
